A study of Sus scrofa with 12 samples.

Results

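The insulin-like growth factor system was described in the uterine lining of the sow through 4 of its genes, the ligands IGF1 and IGF2, the receptor IGF1R and the binding protein IGFBP2. All probe sets of the Affymetrix porcine array whose platform annotation gave one of these symbols as the only gene symbol were taken, whatever their values. They were 19 of the 23999 non-control probe sets, with 13 for IGF2, 3 for IGF1, 2 for IGF1R and 1 for IGFBP2. They stood for 4 of 6765 named genes. The 4 genes themselves were chosen with earlier results of these data known, so that counts of calls among them describe a chosen set. Endometrium was sampled on Day 14 after insemination from 12 sows, with 1 array per sow. Of these, 6 were pregnant and 6 were non-pregnant after insemination with inactivated semen, and each status held 3 Yorkshire and 3 Landrace sows. The non-pregnant sows were numbered 1, 3 and 11 (Yorkshire) and 5, 7 and 9 (Landrace), and the pregnant sows 2, 4 and 12 (Yorkshire) and 6, 8 and 10 (Landrace). The tissue held epithelium, lamina propria and submucosa without the muscle layer, and the uterine horns had been flushed before it was taken. The ages of the sows were not given in the sources used here.

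IGF1 and IGF2 are small secreted growth factors related to insulin, and both signal through IGF1R, a receptor tyrosine kinase that activates the PI3K and MAP kinase pathways. IGF2 is also taken up by IGF2R, which carries it to the lysosome, and its gene is imprinted, with the paternal copy active in most tissues. Secreted binding proteins of the IGFBP family hold most of the ligand outside the cell, and proteases that cut them set the ligand free. In the pig, the endometrium is known as a source of IGF1 around the time when conceptuses elongate, and the ligands and their binding proteins are found in uterine fluid.

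By the brightest probe set of each gene, 3 of the 4 genes were called higher in pregnant sows, against 4.58% of 6765 genes. IGFBP2 rose 4.50-fold, IGF1R and IGF2 rose by smaller amounts, and IGF1 did not pass the test. For IGF1R only 1 of 2 probe sets was called, and that call held in 5 of 12 fits without 1 sow. Over probe sets, 8 of 19 were called higher in pregnant sows (limma, Benjamini-Hochberg adjusted p under 0.05 over all 23999 probe sets) and 0 were called lower. In the whole array 3.95% of probe sets were called higher and 3.94% lower. Of the probe sets with a mean above the median of all values, 6.03% were called higher. Since the 4 genes were chosen with earlier results known, these shares give a scale and do not test the set. All values are log2 expression values, so that a difference of 1 is a doubling on the scale of the array, and levels of different probe sets cannot be compared with each other. Bulk tissue was measured, in which more cells of a type and more RNA per cell cannot be told apart.

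**Figure D1:**
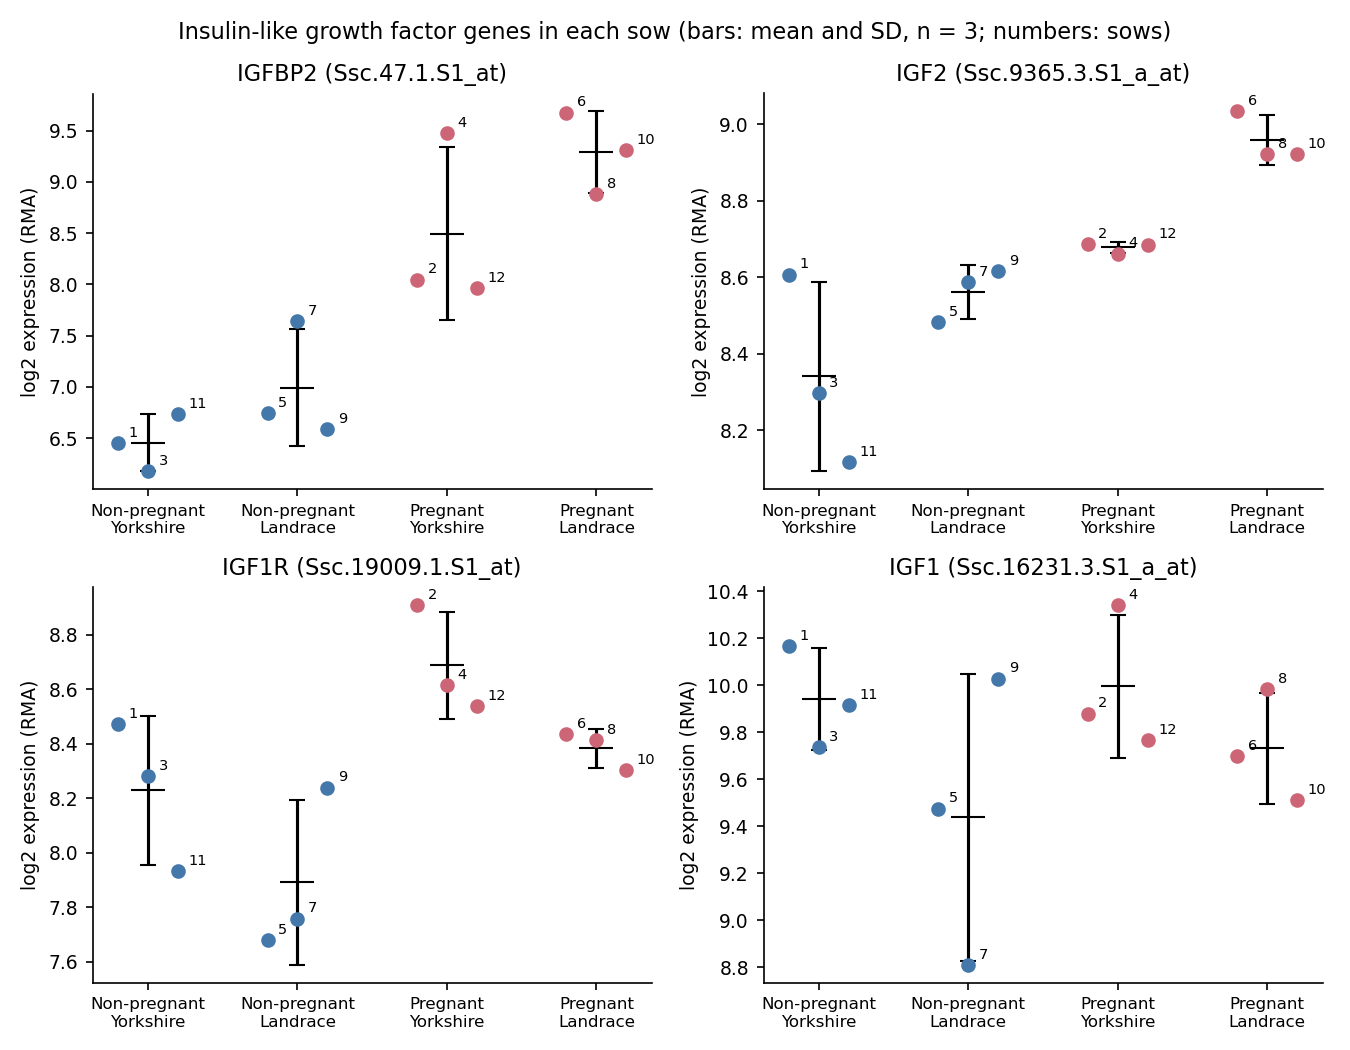
Log2 expression of IGFBP2, IGF2, IGF1R and IGF1 in each of the 12 sows, by pregnancy and breed. Points are sows with their numbers, and horizontal marks and bars give the mean and SD of 3 sows. For IGFBP2 and IGF2 all pregnant sows lie above all non-pregnant sows, for IGF1R this holds within each breed, and for IGF1 the groups overlap.

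The ligand IGF1 was measured by 3 probe sets. With the brightest, Ssc.16231.3.S1_a_at, IGF1 read 10.17, 9.74 and 9.91 in non-pregnant Yorkshire sows 1, 3 and 11 and 9.47, 8.81 and 10.03 in non-pregnant Landrace sows 5, 7 and 9. In pregnant sows it read 9.88, 10.34 and 9.76 in Yorkshire sows 2, 4 and 12 and 9.70, 9.98 and 9.51 in Landrace sows 6, 8 and 10. The groups overlapped almost completely, and non-pregnant sow 7 was the lowest of all 12. Pregnant sows averaged 9.86 ± 0.28 and non-pregnant sows 9.69 ± 0.49 (SD, n = 6 per status), a difference of 0.17 ± 0.19 (SE, limma adjusted p = 0.648). Its 95% confidence interval ran from -0.23 to 0.58, so that neither a small fall nor a rise of up to 1.49-fold was outside it. An exact permutation test of sows within breed gave p = 0.45 (two-sided).

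Without sow 7 the IGF1 difference was 0.02. The same sow stood apart in its immune cell markers, since the mean log2 level of the 8 measured leukocyte markers was 7.51 in sow 7, 5.75 to 5.89 in the other non-pregnant sows and 5.997 to 6.35 in pregnant sows. The part of these cells in the IGF1 value was not tested. The second IGF1 probe set, Ssc.16231.1.S1_a_at, followed the first across sows with r = 0.988 (deviations from the 4 group means, 12 sows), and it too was lowest in sow 7, at 7.41 against 8.45 to 9.43 in the others. It differed by 0.27 ± 0.24 (SE, limma adjusted p = 0.578). The third, Ssc.16231.2.A1_a_at, lay between 6.22 and 6.61 in all sows, close to the array median of 6.29, and did not follow the first (r = -0.05).

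The ligand IGF2 rose in pregnancy by 0.37 ± 0.08 (SE), or 1.29-fold, with its brightest probe set, Ssc.9365.3.S1_a_at. Non-pregnant Yorkshire sows 1, 3 and 11 read 8.61, 8.30 and 8.12, and non-pregnant Landrace sows 5, 7 and 9 read 8.48, 8.59 and 8.62. Pregnant Yorkshire sows 2, 4 and 12 read 8.69, 8.66 and 8.69, and pregnant Landrace sows 6, 8 and 10 read 9.03, 8.92 and 8.92. All pregnant sows exceeded all non-pregnant sows, by a narrow margin between non-pregnant Landrace and pregnant Yorkshire sows. The means were 8.82 ± 0.16 and 8.45 ± 0.20 (SD, n = 6 each), with an adjusted p of 0.0170 in limma. The exact permutation test within breed gave p = 0.005 (two-sided), which is the smallest that 400 assignments of the sows can give. Leaving out any 1 sow kept the limma call, with differences between 0.32 and 0.43.

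Over the 13 probe sets of IGF2, 6 were called higher, 0 were called lower and all 13 differences were above 0. Of these probe sets 12 are annotated to the reference IGF2 transcript, and many share part of their target, so that they are not independent measurements. A suffix _a_at marks a probe set shared by transcripts of 1 gene, and _x_at one whose probes may also bind other transcripts. Of the 9 probe sets without the _x_at suffix 4 were called, and of the 4 with it 2 were called.

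The IGF2 probe sets fell into a bright and a dim group. The 5 with a mean above 7 (8.21 to 8.63) were all called, with differences from 0.32 to 0.53 and adjusted p from 0.00899 to 0.0356 in limma. Sows deviated together in them, since r of the deviations from group means was 0.695 to 0.925 over 10 pairs of probe sets (median 0.836). Among these, Ssc.9365.5.S1_a_at, with a difference of 0.48 ± 0.09 (SE), had the smallest adjusted p of any IGF2 probe set. It read 7.69 to 8.17 in non-pregnant sows (median 8.04) and 8.24 to 8.82 in pregnant sows (median 8.40), and the groups did not overlap. The largest difference among the bright sets was that of Ssc.9365.2.S1_a_at, with 7.77 to 8.38 in non-pregnant and 8.31 to 9.06 in pregnant sows, whose ranges overlapped narrowly.

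The probe set Ssc.20525.1.S1_at was the only IGF2 probe set annotated to another sequence record, and the only dim one that was called. Non-pregnant Yorkshire sows 1, 3 and 11 read 6.08, 5.95 and 6.16, and non-pregnant Landrace sows 5, 7 and 9 read 6.30, 6.45 and 6.38. Pregnant Yorkshire sows 2, 4 and 12 read 6.44, 6.34 and 6.73, and pregnant Landrace sows 6, 8 and 10 read 7.33, 6.84 and 6.91. Within each breed the groups were apart, and across breeds non-pregnant sow 7 lay above pregnant sows 2 and 4 and sow 9 above sow 4. The difference of 0.54 ± 0.10 (SE, limma adjusted p = 0.0107) was the largest of the 13, and the call held without any 1 sow.

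The other 7 dim IGF2 probe sets, with means from 4.76 to 6.29, differed by 0.03 to 0.22 and none passed the test (adjusted p from 0.215 to 0.886 in limma). The lower quartile of all values on the arrays was 4.66 and the median 6.29. All bright sets carry S1 in their names. Of the dim sets, Ssc.9365.5.A1_at, Ssc.9365.6.A1_a_at, Ssc.9365.6.A1_x_at and Ssc.9365.7.A1_x_at carry A1, as does the third IGF1 set. Whether this class goes with the level was not tested. Pairs of dim sets had r of deviations from -0.858 to 0.857 (median 0.201, 28 pairs). Across the 13 sets the difference went with the mean level (r = 0.690), which is a description across probe sets of 1 gene measured on the same arrays. Calls of Ssc.9365.3.S1_x_at and Ssc.9365.6.S1_x_at were less firm than those of the other bright sets. The first was lost without sow 2, 3, 5, 6 or 10 (adjusted p up to 0.0632) and the second without sow 2, 3, 4, 5, 6, 9, 10 or 12 (up to 0.0770). In those fits the first differed by 0.30 to 0.34 and the second by 0.30 to 0.34, against 0.33 and 0.32 over all sows.

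**Figure D2:**
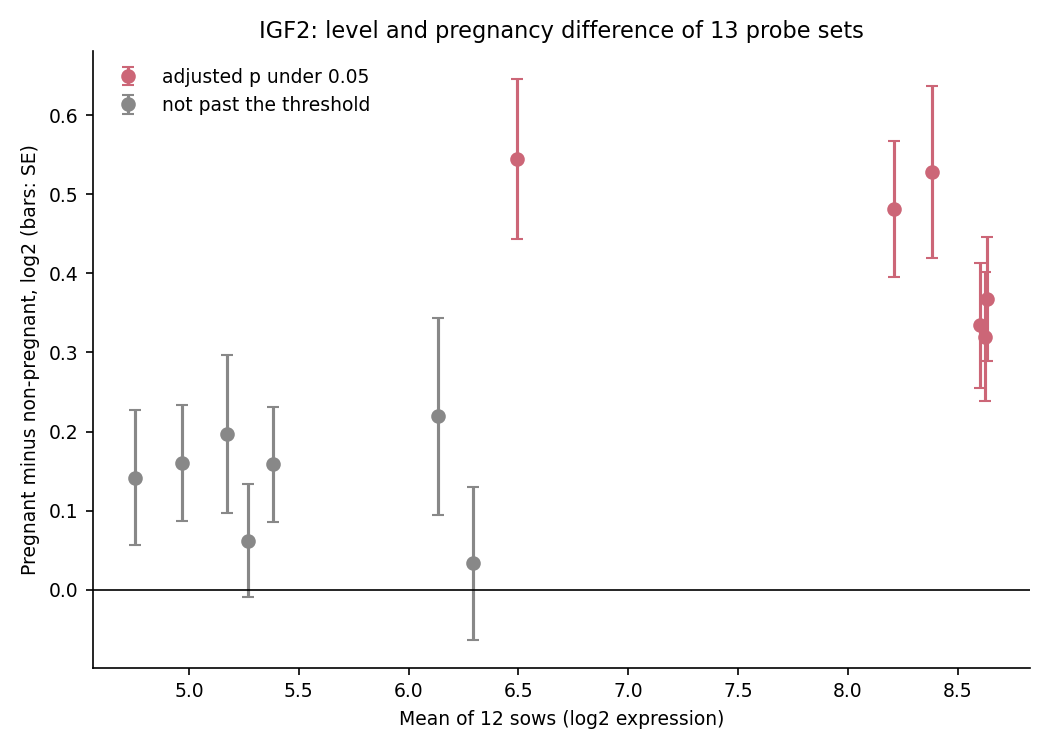
Mean log2 expression over 12 sows (horizontal) and pregnant minus non-pregnant log2 difference (vertical, bars are SE) of the 13 IGF2 probe sets. The 5 sets with means of 8.21 to 8.63 and the set at 6.49 are past the threshold in colour, and the other 7 lie between 0.03 and 0.22.

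The receptor IGF1R rose by 0.47 ± 0.12 (SE), or 1.39-fold, with its brighter probe set, Ssc.19009.1.S1_at. Non-pregnant Yorkshire sows 1, 3 and 11 read 8.47, 8.28 and 7.93, and non-pregnant Landrace sows 5, 7 and 9 read 7.68, 7.76 and 8.24. Pregnant Yorkshire sows 2, 4 and 12 read 8.91, 8.61 and 8.54, and pregnant Landrace sows 6, 8 and 10 read 8.43, 8.41 and 8.30. Pregnant sows were above non-pregnant sows of the same breed without overlap, but non-pregnant Yorkshire sow 1 lay above all pregnant Landrace sows. The means were 8.53 ± 0.21 and 8.06 ± 0.32 (SD, n = 6 each; limma adjusted p = 0.0303), and the exact permutation test within breed gave p = 0.005 (two-sided). This limma call was the least firm of those on the 4 genes. It was lost without sow 2, 3, 4, 5, 6, 10 or 11, with adjusted p from 0.0510 to 0.0746 and differences from 0.41 to 0.49, and without the breed term (adjusted p = 0.0803).

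The second IGF1R probe set, Ssc.16058.1.S1_at, did not pass the test. It read 7.87 to 8.23 in non-pregnant sows (median 8.11) and 8.12 to 8.36 in pregnant sows (median 8.16), ranges that overlapped widely. Its difference was 0.12 ± 0.07 (SE, limma adjusted p = 0.384), with a 95% confidence interval from -0.04 to 0.28. The sets followed each other across sows (r = 0.736 of deviations from group means), and the mean of both differed by 0.30 (adjusted p = 0.0626). Whether their differences were unequal was not tested.

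The binding protein IGFBP2 had the largest difference of the 4 genes, 2.17 ± 0.27 (SE), or 4.50-fold with a 95% confidence interval from 2.99 to 6.78. Its only probe set, Ssc.47.1.S1_at, read 6.45, 6.18 and 6.74 in non-pregnant Yorkshire sows 1, 3 and 11 and 6.74, 7.64 and 6.58 in non-pregnant Landrace sows 5, 7 and 9. It read 8.05, 9.47 and 7.97 in pregnant Yorkshire sows 2, 4 and 12 and 9.68, 8.88 and 9.31 in pregnant Landrace sows 6, 8 and 10. The statuses did not overlap, with the lowest pregnant sow, 12, above the highest non-pregnant sow, 7. Pregnant sows averaged 8.89 ± 0.73 and non-pregnant sows 6.72 ± 0.50 (SD, n = 6 per status; limma adjusted p = 0.00342, exact permutation p = 0.005).

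Only 29 of 23999 probe sets (0.121%) had a larger rise than IGFBP2, and among 6765 genes it ranked 14. Its call held without any 1 sow, with differences from 1.97 to 2.30. Of all 19 probe sets of the 4 genes, 4 had no overlap, with all pregnant sows higher, against 1.30% of the whole array. These were IGFBP2 and the IGF2 sets Ssc.9365.3.S1_a_at, Ssc.9365.5.S1_a_at and Ssc.9365.6.S1_x_at.

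**Figure D3:**
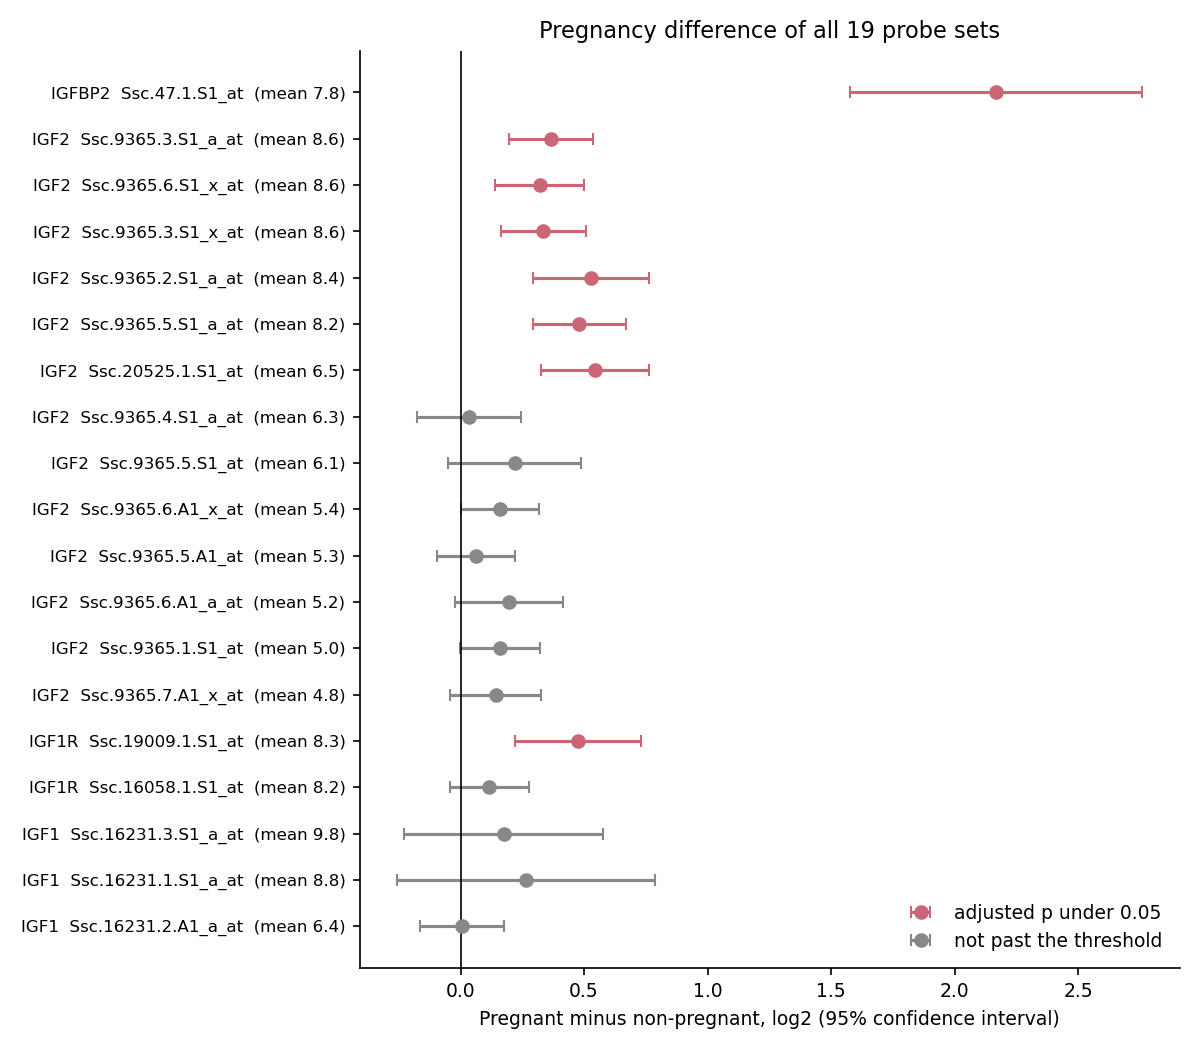
Pregnant minus non-pregnant log2 difference of the 19 probe sets with 95% confidence intervals, from the fit with breed as a term; the mean level over 12 sows is given with each name. IGFBP2 stands at 2.17, the 8 called sets are coloured, and all 19 differences lie above 0, the smallest (0.01) for IGF1.

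In each breed alone the differences kept their direction for IGFBP2, IGF2 and IGF1R. IGFBP2 differed by 2.04 ± 0.40 in Yorkshire (SE, limma adjusted p = 0.0846) and by 2.30 ± 0.40 in Landrace (adjusted p = 0.0262), where the call was lost without sow 5, 6, 9 or 10 (adjusted p up to 0.106). For IGF2 (Ssc.9365.3.S1_a_at) the differences were 0.34 and 0.40, and for IGF1R (Ssc.19009.1.S1_at) 0.46 and 0.49. IGF1 differed by 0.05 in Yorkshire and 0.29 in Landrace, and by -0.02 in Landrace without sow 7. With 3 sows a group the single-breed tests called few probe sets anywhere. Within Yorkshire 0 of the 19 and 0.00% of the array were called higher by limma, while 8 of the 19 and 7.11% of the array were higher at an unadjusted p under 0.05. Within Landrace 1 of the 19 and 0.550% of the array were called higher, and 9 of the 19 and 8.37% at an unadjusted p under 0.05.

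The test of the difference between breeds called 0 of the 19 and 0.00% of the array, and 0 of the 19 had an unadjusted p under 0.05 (4.01% of the array did). For IGFBP2 the difference in Landrace exceeded that in Yorkshire by 0.26, with a 95% confidence interval from -0.97 to 1.49. For IGF2 it did by 0.06 (-0.30 to 0.42), for IGF1R by 0.03 (-0.50 to 0.57) and for IGF1 by 0.24 (-0.60 to 1.08). These intervals are wide, and they do not show that the breeds responded alike.

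**Figure D4:**
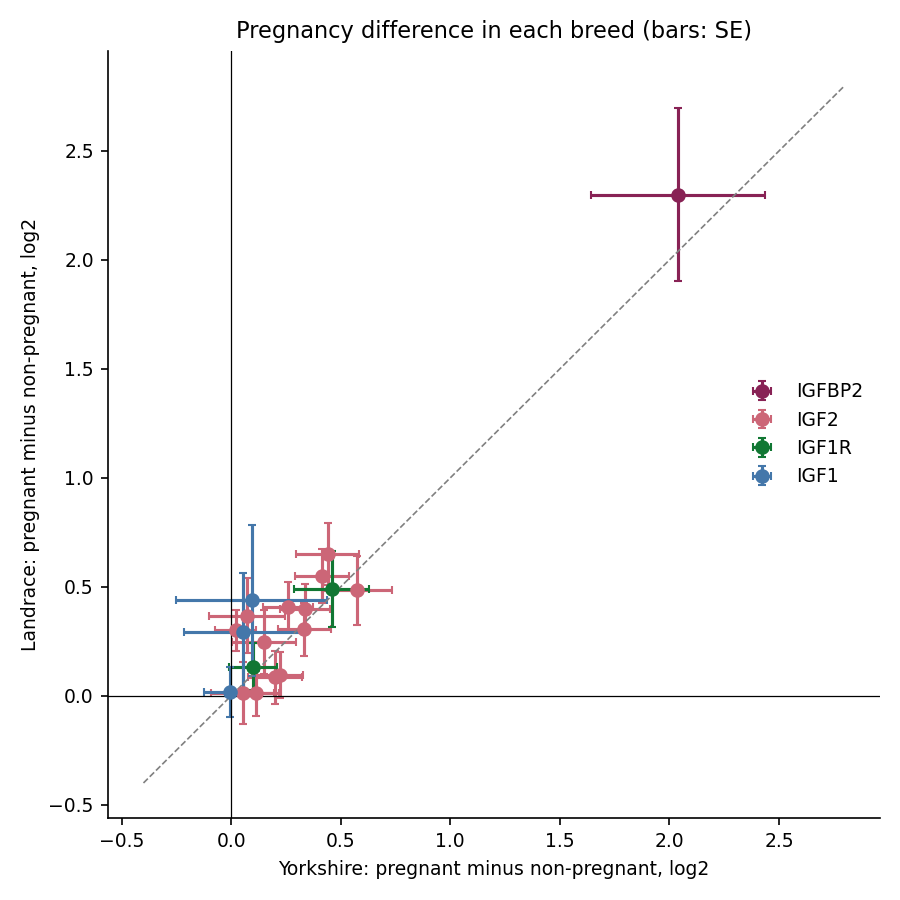
Pregnant minus non-pregnant log2 difference in Yorkshire (horizontal) and Landrace (vertical) for the 19 probe sets, coloured by gene, with SE bars and a dashed line of equal differences. IGFBP2 lies at 2.04 and 2.30, far from the other sets.

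Between breeds, 1 IGF2 probe set was higher in Landrace and no other set of the 4 genes passed the test. Landrace exceeded Yorkshire in all 13 IGF2 probe sets, by 0.02 to 0.42, and 1 was called, Ssc.20525.1.S1_at, at 0.42 ± 0.10 (SE, limma adjusted p = 0.0338). Over the 19 probe sets 1 was called higher and 0 lower in Landrace, against 2.22% and 2.93% of the array. The IGF2 call was lost without sow 1, 2, 3, 4, 7, 9 or 10, with differences of 0.37 to 0.44 and adjusted p from 0.0555 to 0.0689. For Ssc.9365.3.S1_a_at the breed difference was 0.25 ± 0.08 (adjusted p = 0.0886). IGFBP2 differed by 0.66 ± 0.27 (adjusted p = 0.189), IGF1R by -0.32 ± 0.12 (adjusted p = 0.142) and IGF1 by -0.38 ± 0.19 (adjusted p = 0.274). Among non-pregnant sows alone 0 of the 19 were called higher in Landrace by limma (0.396% of the array), and 1 had an unadjusted p under 0.05 (5.94%). Among pregnant sows 0 were called higher (0.279%), and 3, all of IGF2, had an unadjusted p under 0.05 (6.45%).

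The order of the 4 groups differed between genes. For IGFBP2 the means rose from non-pregnant Yorkshire (6.45 ± 0.28, SD, n = 3) over non-pregnant Landrace (6.99 ± 0.57) and pregnant Yorkshire (8.49 ± 0.85) to pregnant Landrace (9.29 ± 0.40). Sows of neighbouring groups overlapped except between non-pregnant Landrace and pregnant Yorkshire. IGF2 (Ssc.9365.3.S1_a_at) had the same order, with 8.34 ± 0.25, 8.56 ± 0.07, 8.68 ± 0.01 and 8.96 ± 0.06, and only its non-pregnant groups overlapped. IGF1R (Ssc.19009.1.S1_at) rose from non-pregnant Landrace (7.89 ± 0.30) over non-pregnant Yorkshire (8.23 ± 0.27) and pregnant Landrace (8.38 ± 0.07) to pregnant Yorkshire (8.69 ± 0.20), and only the pregnant groups did not overlap with each other among neighbours. For IGF1 all groups overlapped, with means from 9.44 ± 0.61 in non-pregnant Landrace to 9.99 ± 0.31 in pregnant Yorkshire.

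RNA quality went with breed and, in Landrace, with pregnancy. The difference of the 3' and 5' GAPDH control probe sets, which grows as RNA is degraded, was 1.31 to 1.63 in Yorkshire and 0.869 to 1.25 in Landrace sows, without overlap. In Landrace it was 1.15 to 1.25 in pregnant and 0.869 to 1.04 in non-pregnant sows. With it as a covariate, 0 of 23999 probe sets were called for pregnancy in limma. The covariate takes up part of the breed term and of the pregnancy term (mean 1.36 in pregnant and 1.20 in non-pregnant sows). The SE of the IGFBP2 difference grew from 0.27 to 0.38. The parts of RNA quality, breed and pregnancy cannot be told apart in this fit. The pregnancy differences then were 1.96 ± 0.38 for IGFBP2 (SE, adjusted p = 0.111), 0.49 ± 0.10 for IGF2 (adjusted p = 0.111), 0.65 ± 0.15 for IGF1R (adjusted p = 0.112) and 0.02 ± 0.26 for IGF1 (adjusted p = 0.973). The breed difference of IGF2 (Ssc.9365.3.S1_a_at) turned to -0.06 and that of Ssc.20525.1.S1_at was 0.68 (adjusted p = 0.589).

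Some markers of cell types were called with pregnancy as well. Over all genes 4.58% were called higher and 7.48% lower, and some of the counts below are near these shares. All 11 measured epithelial and all 8 measured stromal markers had means over 12 sows above the median of all values, as had at least 4879 of 6765 genes. Among them were EPCAM (11.5) and VIM (12.2). Endothelial markers were called higher in 7 of 10, and their mean log2 level was 6.90 to 7.40 in pregnant and 6.27 to 6.76 in non-pregnant sows. Stromal markers were called higher in 4 of 8 and lower in 1 (9.75 to 10.36 against 9.49 to 10.06), and epithelial markers higher in 1 of 11 and lower in 2 (9.32 to 10.02 against 9.74 to 9.97). Of 7 smooth muscle markers 1 rose (8.46 to 9.16 against 8.26 to 8.72). Of 7 gland markers 2 rose (10.10 to 10.54 against 9.38 to 11.07), of 8 leukocyte markers 1 rose, and of 2 blood markers 0 were called (6.50 to 7.33 against 6.72 to 7.02). Of 12 trophoblast markers 0 rose and 1 fell, with levels of 5.57 to 7.14 in pregnant and 5.46 to 6.12 in non-pregnant sows. IFNG, which the pig conceptus secretes, read 12.65 in pregnant sow 10 and 8.21 in sow 6, against 4.00 to 4.26 in the other pregnant and 3.61 to 4.41 in the non-pregnant sows. CYP11A1, a steroid-producing enzyme of the conceptus, read 5.95 in sow 10 and 3.49 to 4.02 in the other 11 sows, and STAR read 3.84 to 4.42 in all 12, below the lower quartile of all values. Without sow 10 IGFBP2 differed by 2.15 and IGF2 by 0.37, and without sow 6 by 2.07 and 0.35. All 4 values stayed past the threshold in limma. Each of these fits kept the other of the 2 sows, and no fit left out both. The part of the cell types and of conceptus transcripts in the differences was not tested.

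Around the ligands and the receptor, 66 other measured genes stood on 10 pathway lists. Of these, 6 rose and 2 fell with pregnancy, against 4.58% of all genes higher and 7.48% lower. Their median difference was 0.05 against -0.03 over all genes. The same 4.58% and 7.48% are the background for the pregnancy counts of each list below. Among the other ligands and receptors none of 3 was called. IGF2R, which clears IGF2, differed by 0.20 ± 0.07 (SE, limma adjusted p = 0.104), the insulin receptor INSR by 0.15 and insulin, INS, by -0.08. Among 4 other binding proteins none was called. IGFBP5, which binds to the extracellular matrix, read 7.07 to 7.52 in non-pregnant and 7.33 to 8.08 in pregnant sows (0.45 ± 0.13, adjusted p = 0.0631), and it was called without sow 2 or 8 (lowest adjusted p = 0.0288). IGFBP6, which prefers IGF2, read 7.11 to 8.31 in non-pregnant and 6.81 to 7.76 in pregnant sows (-0.52 ± 0.22, adjusted p = 0.167). IGFBP1 and IGFALS, the acid-labile subunit of the circulating complex, differed by less than 0.1.

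Among proteases that cut binding proteins, and their inhibitors, 2 of 7 rose. STC1, a secreted glycoprotein that inhibits the protease PAPPA, read 6.57 to 10.50 in non-pregnant and 7.37 to 12.15 in pregnant sows, a wide overlap in which pregnant sow 12 was low and the other pregnant sows lay at 10.38 and above. It differed by 2.29 ± 0.58 (SE, limma adjusted p = 0.0332), and the call was lost without any 1 of sows 2, 3, 4, 5, 6, 9, 10 and 11 (adjusted p up to 0.0781). CTSD, a lysosomal protease, rose by 0.31 ± 0.08 (adjusted p = 0.0364), a call lost without sow 1, 3, 4, 5, 8, 9, 10 or 12 (up to 0.0824). PAPPA itself differed by 0.16, HTRA1 and PLAU by -0.14, MMP7 by -0.11 and ADAM28 by 0.08, and none was called. The MMP7 value rested on non-pregnant sow 7, at 9.65. The other non-pregnant sows read 3.42 to 3.86 and the pregnant sows 3.56 to 6.52. Without sow 7 MMP7 differed by 0.93 (limma adjusted p = 0.214) and PLAU by 0.02 (adjusted p = 0.970). HTRA1 and ADAM28 also changed sign in fits without 1 sow.

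Inside the cell, few genes were called, against 4.58% of all genes higher and 7.48% lower. GAB1, a docking protein for receptor tyrosine kinases, was the only one of 10 adaptors and dampers called, with 7.78 to 8.49 in non-pregnant and 8.59 to 9.52 in pregnant sows. The groups did not overlap, and the difference was 1.06 ± 0.16 (SE, limma adjusted p = 0.00577). EIF4E, the translation factor that binds the mRNA cap, was the only one of 12 genes of the PI3K, AKT and mTOR branch called. It read 6.50 to 6.99 in non-pregnant and 5.90 to 6.49 in pregnant sows and fell by 0.71 ± 0.12 (adjusted p = 0.00688). Of the RAS and MAP kinase branch none of 5 was called, and the smallest p were those of DUSP6, a MAP kinase phosphatase, at 0.59 ± 0.24 (adjusted p = 0.151) and ARAF at -0.38 (adjusted p = 0.419).

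Upstream of the ligands, PLAGL1, an imprinted zinc finger factor known to act on other imprinted genes, was the only one of 3 IGF2 regulators called. It read 7.92 to 8.87 in non-pregnant and 8.47 to 9.76 in pregnant sows (0.87 ± 0.20 SE, limma adjusted p = 0.0239), and the call was lost without sow 2, 3, 4, 6 or 9 (adjusted p up to 0.0595). Of 8 genes of growth hormone and steroid input, the estrogen receptor ESR1 alone was called. It fell by 0.58 ± 0.14 (adjusted p = 0.0257) with no overlap, from 7.28 to 7.93 in non-pregnant to 6.73 to 7.26 in pregnant sows. Without sow 2, 5, 6, 9 or 10 the call was lost (adjusted p up to 0.0654). The growth hormone receptor GHR differed by 0.14 (adjusted p = 0.462). Of 8 other imprinted growth genes none was called, and NNAT (0.89, adjusted p = 0.344) and PEG10 (0.08, adjusted p = 0.688) had the smallest p. The NNAT value rested on pregnant sow 6, which read 9.95 against 6.20 to 6.69 in the other pregnant and 5.82 to 6.43 in the non-pregnant sows, and without it the difference was 0.30 (adjusted p = 0.220).

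Subunits of integrins, some of which bind IGFBP2 or IGF1, held 2 of 6 called. ITGAV read 8.40 to 8.93 in non-pregnant and 9.03 to 9.53 in pregnant sows, without overlap, and rose by 0.77 ± 0.11 (SE, limma adjusted p = 0.00517). Its partner ITGB5 rose by 0.86 ± 0.09 (adjusted p = 0.00185). ITGB3 and ITGB1, which also pair with ITGAV, differed by 0.66 ± 0.19 (adjusted p = 0.0517) and 0.09 ± 0.08 (adjusted p = 0.589), and ITGB3 was called without sow 7, 8 or 12 (lowest adjusted p = 0.0201). The calls of ITGAV, ITGB5, GAB1 and EIF4E held without any 1 sow.

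**Figure D5:**
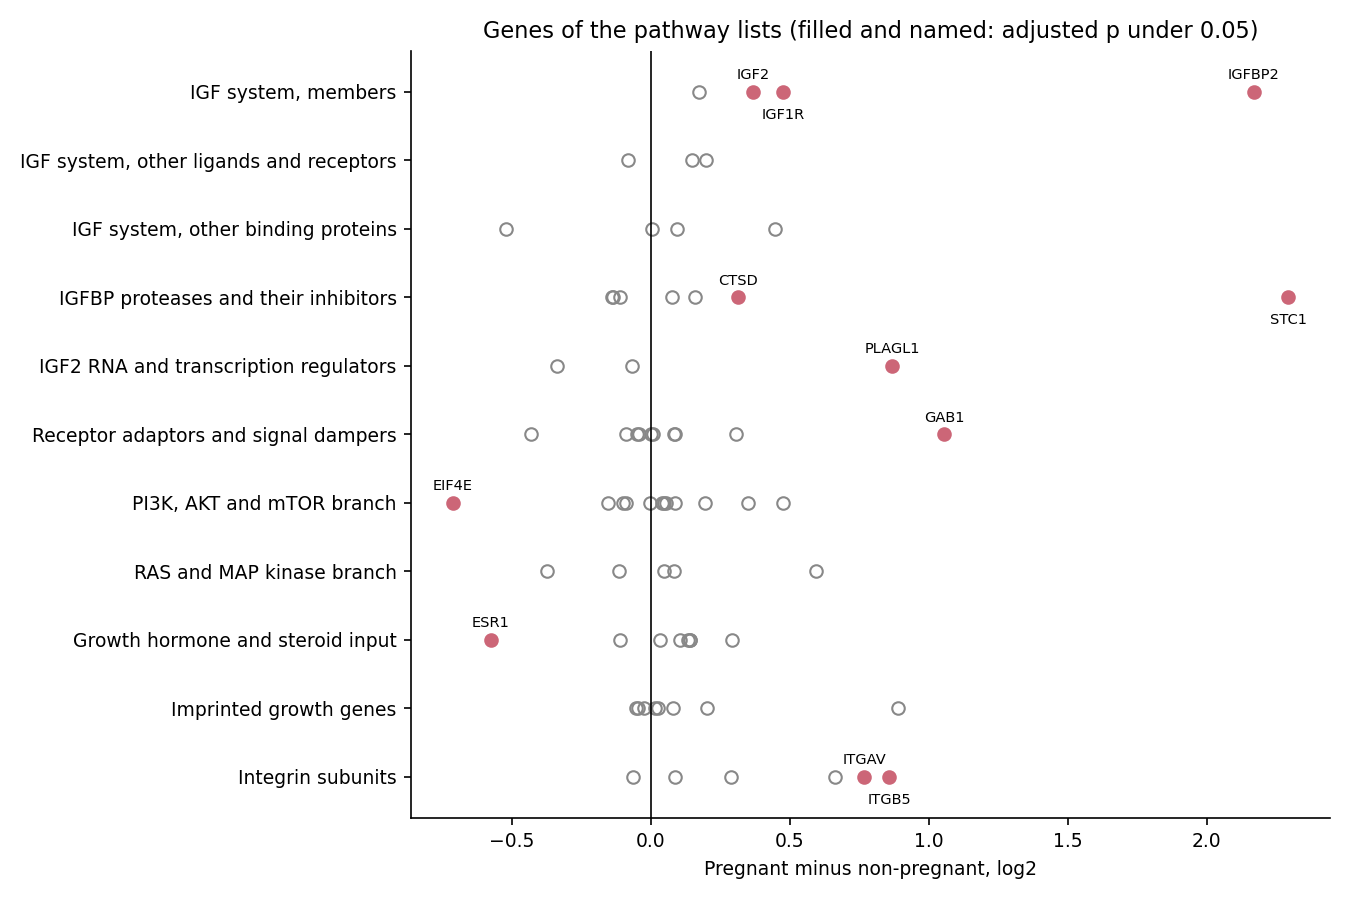
Pregnant minus non-pregnant log2 difference of 70 measured genes on 11 lists of the pathway, by list. Filled, named points passed the threshold: IGFBP2 and STC1 lie beyond 2, EIF4E and ESR1 lie below 0, and most other genes lie near 0.

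Between breeds, 2 of the 66 pathway genes were higher and 4 lower in Landrace, against 2.03% and 3.24% of all genes. STC1 was higher by 2.21 ± 0.58 (SE, limma adjusted p = 0.0485) and PDPK1, the kinase that activates AKT, by 0.26 ± 0.07 (adjusted p = 0.0443). PTPN1, a phosphatase that acts on the insulin receptor, was lower by 0.88 (adjusted p = 0.00364), the imprinted noncoding RNA MEG3 by 0.54 (adjusted p = 0.00712) and the progesterone receptor PGR by 0.40 (adjusted p = 0.00906). CTSD was lower by 0.31 (adjusted p = 0.0470). The calls of PTPN1, MEG3 and PGR held without any 1 sow, while those of STC1, CTSD and PDPK1 were lost in 10, 10 and 11 of 12 such fits (adjusted p up to 0.104). The RNA quality measure given above separated the breeds, and its part in these differences was not tested.

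Within a status the 4 genes showed no relation that passed correction. Over 6 sows per status, 12 pairs were compared by Pearson's r and Spearman's rho, with breed not removed. The lowest adjusted permutation p was 0.287 for r and 0.40 for rho. The smallest exact p for r was that of IGF1 and IGF1R in non-pregnant sows, with r = 0.751 (exact permutation p = 0.0639, rho = 0.771, p = 0.103). This r was 0.433 without the 2 sows farthest from the median of IGF1. In non-pregnant sows IGF1 and IGFBP2 had r = -0.827 (exact permutation p = 0.0681, rho = -0.657, p = 0.175), which turned to 0.433 without the same 2 sows. IGF1R and IGFBP2 had r = -0.692 (exact p = 0.0958) and rho = -0.886 (exact p = 0.0333). Here r was -0.911 without the 2 sows farthest from the median of IGF1R. In pregnant sows IGF2 and IGF1R had r = -0.711 (exact p = 0.0931, rho = -0.657, p = 0.175). It was -0.798 without the 2 sows farthest from the median of IGF2. IGF2 and IGFBP2 had r = 0.605 in pregnant sows (exact p = 0.212, rho = 0.429), and 0.963 without the same 2 sows.

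The genes most like each of the 4 across the 12 sows were found by Pearson's r among 4879 genes with means above the array median. For IGFBP2 they were HBP1 (r = 0.963), SLC46A3 (0.960) and the glucose transporter SLC2A1 (0.956). For IGF2 they were LRPAP1 (0.902), ASS1 (0.881) and C6H1orf210 (0.869), and for IGF1R they were MXRA8 (0.931), FAM57A (0.884) and CASTOR1 (0.878). IGF1 was most like COL7A1 (0.890), TMEM45A (0.846) and FAM69B (0.846). Taken over deviations from the 4 group means, COL7A1 was again among the first 3 for IGF1 (0.877, with C1QTNF6 at 0.923 and ZNF395 at 0.866). The other 3 genes had different genes at the head, with MAN1C1 (0.916), CKAP4 (0.910) and TMEM87B (0.908) for IGFBP2, EGFL7 (0.901), PDE4A (0.900) and LOC100737768 (0.893) for IGF2, and CIR1 (0.881), C6H18orf21 (0.871) and TCEA1 (0.859) for IGF1R. All these points share the same 12 arrays, and the coefficients are descriptions of them.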

How the data were processed

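Total RNA of endometrium from 12 sows was hybridised to Affymetrix porcine arrays, 1 array per sow. The authors deposited log2 values per probe set, and per the submitters' processing notes they used RMA, affy and limma, with no versions given in the sources used here. RMA makes the distributions of arrays alike (array medians 6.25 to 6.30), so that only relative differences are measured. The number of arrays limits the precision. Of 24123 probe sets, 124 controls were left out.

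Here limma 3.58.1 was run in R 4.3.3 (two-sided, eBayes) over all 12 sows, with pregnancy and breed as terms (9 residual degrees of freedom). Contrasts within breed or status and the interaction came from a fit of 4 groups (8 degrees of freedom). Benjamini-Hochberg adjustment ran over 23999 probe sets, with a threshold of 0.05. Names came from the platform annotation (1 symbol for 10069 probe sets, several for 198, none for 13732), and all 19 gene identifiers were in the RefSeq gene table. In lists, the probe set with the highest mean stood for a gene. Named were all probe sets of the 4 genes, all called genes of a list (otherwise the 2 with the smallest p) and the other ligands, receptors and binding proteins. The other measured proteases, ITGB3, ITGB1 and GHR were added after their values were seen. The 4 genes and the lists were chosen with earlier results of these data known. Sow numbers alternate between statuses, with neighbouring numbers of 1 breed, but groups share no number and the labels name no pairs, so no pairing was fitted. The fitting step was run on simulated arrays with planted pregnancy differences, to see that their median size was recovered. Noise there was independent between probe sets, with no breed or RNA quality effect. The simulation therefore does not measure false calls in these arrays. Sequences and coordinates are not reported here.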

Additional observations from a re-analysis of the deposited data

Results flagged for a closer look

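Among 38 sets of 6 values (the 19 probe sets in each status), 2 had a sow apart from the rest by Dixon's criterion, and chance gives about 5% of such sets. In the IGF2 probe set Ssc.9365.6.S1_x_at, non-pregnant sow 11 read 8.09, below 8.42 to 8.62 in the other non-pregnant sows. In the dim IGF2 probe set Ssc.9365.1.S1_at, pregnant sow 12 read 4.79, below 5.06 to 5.15 in the other pregnant sows, and without it the pregnancy difference was 0.22 (adjusted p = 0.0448 in limma) in place of 0.16 (adjusted p = 0.216).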

How the results depend on the processing

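Of 1182 values recomputed under alternatives, 1059 stayed the same, 53 lost the call, 14 gained it, 26 changed sign and 30, all counts, moved. A difference stayed the same if it kept its direction and side of the threshold. A count of called probe sets stayed the same if it was equal or of similar size. Many values had little room to change, such as the counts called lower, which were 0 in all fits. IGFBP2 was called in all alternatives but the GAPDH covariate, added after the data were seen (1.96). IGF2 (Ssc.9365.3.S1_a_at) lost its call without the breed term (0.37, adjusted p = 0.0616), at a threshold of 0.01 (0.37) and with that covariate (0.49). IGF1R (Ssc.19009.1.S1_at) lost it in those 3 (0.47, 0.47 and 0.65) and as the mean of its probe sets (0.30), and leaving out 1 sow gave 0.41 to 0.55. The count of 8 probe sets called higher with pregnancy was 4 without the breed term, 2 at 0.01, 0 with the covariate and 5 to 8 without 1 sow (5 without sow 2, 3, 5, 6 or 10). The breed count of 1 was 0 without sows 7 and 12 together (also chosen after the data were seen), 0 with the covariate and 0 to 2 without 1 sow. The Yorkshire count of 0 was 5 with array weights, 1 without both sows and 0 to 1 without 1 sow (1 without sow 12). The Landrace count of 1 was 3 with dim probe sets left out, 5 with array weights, 2 without both sows and 0 to 3 without 1 sow (3 without sow 8). The count for breed in pregnant sows was 1 with array weights in place of 0.

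Signs changed for small differences. The pregnancy difference of IGF1 Ssc.16231.2.A1_a_at was -0.0132 with arrays centred on their medians and -0.0361 to 0.0558 without 1 sow, and that of IGF2 Ssc.9365.4.S1_a_at -0.0194 to 0.0875. With the covariate the breed difference was 0.01001 for IGF1 and -0.0611 for IGF2. IGF1 ranged from -0.118 to 0.170 in Yorkshire and from -0.0201 to 0.589 in Landrace without 1 sow, and was -0.0201 in Landrace without both sows. The interaction was -0.0334 for IGF1 with array weights, -0.190 without both sows and -0.0751 to 0.534 without 1 sow. For IGF1R it was -0.0226 with cyclic loess, -0.0513 with array weights, -0.109 without both sows and -0.0892 to 0.205 without 1 sow. For IGFBP2 it was -0.00580 to 0.747 and for IGF2 -0.0734 to 0.172 without 1 sow. The causes were not tested. Over the whole array, 947 probe sets were called higher and 945 lower with pregnancy, against 1697 and 1943 with array weights, 579 and 586 without the breed term, 191 and 132 at 0.01, 0 and 0 with the covariate, and 1492 and 1721 without both sows. Without 1 sow these ranged from 514 to 1201 and from 437 to 1425. A call could be lost in such a fit while the difference grew. For IGF2 Ssc.9365.6.S1_x_at it was 0.34 without sow 4 in place of 0.32 (limma adjusted p = 0.0544). In that fit 593 probe sets were called higher and 478 lower over the array. No paired analysis was possible because the groups share no replicate numbers and the labels name no pairs. The files used here hold no background or detection values, so what signal over background limits for dim probe sets is unknown.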
